A study of Mus musculus with 12 samples.

Results

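The 9 genes described here are the embryonic globin genes Hbb-y, Hbb-bh1 and Hba-x, the adult beta globin genes listed as Hbb-b1, Hbb-b2 and Beta-s, and 3 further genes of red cells, Alas2, Slc4a1 and Slc25a37. They were picked by name from a table of 4859 coding genes because their levels changed over the stages and differed between the populations, so both patterns chose the members and their levels are given as a description, with no test. The table itself holds only genes that the study selected as differentially expressed, and other red cell genes outside it, such as the adult alpha globins, were not analysed here. Levels are FPKM, sequenced fragments scaled to transcript length and to the number of mapped fragments, from bulk RNA-seq of 12 libraries, 2 in each of 6 groups.

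All groups came from the embryonic cerebral cortex of 1 transgenic mouse line, Tg(Ebf2-EGFP)FB58Gsat, in which green fluorescent protein is made under control of the Ebf2 gene region. Cells were dissociated and sorted on 3 embryonic days (E11.5, E13.5, then E15.5) into Ebf2-EGFP+ cells, which are early preplate neurons and, later, mainly Cajal-Retzius cells, and Ebf2-EGFP- cells, which are the rest of the dissected cortex, vessels and covering tissue included as far as they were dissociated. The sort rested on the reporter alone, embryos of several litters were pooled, and the sources used here name no step that removes blood cells. Ebf2 itself lay between 2.83 and 61.2 FPKM in the Ebf2-EGFP+ libraries and between 0.0644 and 1.54 FPKM in the Ebf2-EGFP- libraries. Depth per library is unknown, because FPKM does not give fragment counts back. The study describes the 2 libraries of a group as biological replicates from separate preparations of sorted cells, each pooled from embryos of several mice, and the sources used here do not list the embryos of each pool. The p-values below thus measure the spread between pooled preparations and not that between single embryos.

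Haemoglobin joins alpha-type and beta-type globin chains around haem. In the mouse embryo the earliest red cells, made in the yolk sac, carry the embryonic chains from Hbb-y (epsilon), Hbb-bh1 (beta-h1) and Hba-x (zeta), and red cells made later in the fetal liver carry adult beta chains, a replacement known as the globin switch. Alas2 makes the erythroid enzyme that starts haem synthesis, Slc25a37 (mitoferrin 1) brings iron into mitochondria for it, and Slc4a1 (band 3) is the anion exchanger of the red cell membrane. Neurons and their progenitors are not known as a main source of these RNAs.

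The globin genes lie in clusters. In the GENCODE M21 annotation of GRCm38, Hbb-y is at chr7:103851749-103853216, Hbb-bh1 at chr7:103841637-103843164 and Hbb-bs, of which Beta-s is a RefSeq synonym, at chr7:103826534-103828096, all on the minus strand. Hba-x is at chr11:32276400-32278116 on the plus strand, apart from the beta cluster. Alas2 is at chrX:150547375-150570638 on the plus strand, Slc4a1 at chr11:102348824-102366203 and Slc25a37 at chr14:69241848-69285112, both on the minus strand. RefSeq places Hbb-b1 and Hbb-b2 outside the primary assembly, so the loci behind these symbols in the table are uncertain. The annotated adult copies Hbb-bs and Hbb-bt are near-identical. Their transcripts of 628 and 703 bases matched at 588 of 636 aligned positions (92.5%), with a longest identical run of 430 bases, while Hbb-bs matched Hbb-y at 71.3% and Hbb-bh1 at 70.5%, with no identical run over 22 bases. Reads of the adult copies can therefore be divided among Hbb-b1, Hbb-b2 and Beta-s in ways that the files do not show, and their sum depends less on this division than any 1 of them.

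The bases before the start sites of 4 of the 9 members are shown, because genes of 1 cell lineage that rise and fall at different stages can be compared there directly. Each run holds the 150 bases directly upstream of the RefSeq start site in GRCm38.p6, 5′ to 3′ on the strand of the gene. The GENCODE spans given above start further upstream. The runs of Hba-x and Beta-s lie inside those spans, and the runs of Hbb-y and Alas2 overlap them. Capitals mark a GATA motif (GATA with A or T before it and A or G after it), CACCC or CCAAT on either strand, and a TATA-type box (TATAAA, its variant TATAAG or its variant CATAAA) on the printed strand only. The runs are chr7:103853208-103853357 on the minus strand for Hbb-y, chr11:32276450-32276599 on the plus strand for Hba-x, chr7:103827929-103828078 on the minus strand for Beta-s (as Hbb-bs), and chrX:150547267-150547416 on the plus strand for Alas2.
Hbb-y: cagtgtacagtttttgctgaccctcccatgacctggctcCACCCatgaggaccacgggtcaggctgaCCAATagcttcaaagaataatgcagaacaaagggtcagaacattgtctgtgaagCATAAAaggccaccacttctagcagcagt
Hba-x: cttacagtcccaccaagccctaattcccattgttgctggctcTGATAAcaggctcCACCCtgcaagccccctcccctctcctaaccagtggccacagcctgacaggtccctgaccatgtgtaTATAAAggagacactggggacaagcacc
Beta-s: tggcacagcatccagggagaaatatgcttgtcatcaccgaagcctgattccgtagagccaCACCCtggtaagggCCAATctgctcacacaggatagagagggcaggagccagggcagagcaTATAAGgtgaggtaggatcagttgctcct
Alas2: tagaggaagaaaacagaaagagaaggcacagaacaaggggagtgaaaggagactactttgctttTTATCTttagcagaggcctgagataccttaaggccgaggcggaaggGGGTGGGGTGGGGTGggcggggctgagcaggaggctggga

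All 4 windows held a CACCC motif, which 37.4% of 32851 promoters of the RefSeq table also held in this window. A TATA-type box stood in the 3 globin windows, starting 28 or 29 bases before the start site, against 10.4% of all promoters. CCAAT was found in Hbb-y and Beta-s (24.5% of all), and a GATA motif in Hba-x and Alas2 (16.0% of all). Hbb-y, which fell, and Beta-s, which rose, thus carried the same 3 kinds of motif in the same order. A match is a run of letters and not a measured binding site.

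The embryonic globins were abundant at E11.5 in Ebf2-EGFP- cells and had almost gone by E13.5. Hbb-y, the main embryonic beta-type chain, stood at 737 and 1589 FPKM in the E11.5 Ebf2-EGFP- libraries, at 4.07 and 3.30 FPKM 2 days later and at 0.0854 and 0.123 FPKM by E15.5. At E11.5 it ranked 19 and 3 by FPKM among the 4859 genes of the table. The Ebf2-EGFP+ libraries held 55.0 and 18.4 FPKM at E11.5 and 3.33 and 0.992 FPKM at E13.5, and Hbb-y was listed at 0 in both of them at E15.5. Successive stages did not overlap in either population.

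Hba-x, the embryonic alpha-type chain encoded on another chromosome, followed Hbb-y closely. Its level in Ebf2-EGFP- libraries was 464 and 1007 FPKM on E11.5, 1.11 and 1.68 FPKM on E13.5, then 0.0897 and 0 FPKM on E15.5. The Ebf2-EGFP+ libraries gave 33.2 and 12.5 FPKM on E11.5 and 0.963 and 1.21 FPKM on E13.5, and Hba-x was listed at 0 in both on E15.5. At E11.5 the ratio of Hbb-y to Hba-x was 1.59 and 1.58 in the Ebf2-EGFP- libraries and 1.66 and 1.47 in the Ebf2-EGFP+ libraries, so the ratio was similar in libraries whose levels lay far apart. At E13.5, where both genes were low, the same ratio spread from 0.819 to 3.66 over the 4 libraries.

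Hbb-bh1, the other embryonic beta-type chain, was the lowest of the embryonic globins at E11.5. It stood at 101 and 147 FPKM in the E11.5 Ebf2-EGFP- libraries and at 8.49 and 1.75 FPKM in the Ebf2-EGFP+ libraries. At E13.5 all 4 libraries lay between 0.271 and 0.470 FPKM, and at E15.5 a single Ebf2-EGFP- library, replicate 2, had a level above 0 (0.0631 FPKM). Hbb-y exceeded Hbb-bh1 by 7.30 and 10.8 times in E11.5 Ebf2-EGFP- replicates 1 and 2, and by 6.48 and 10.5 times in the Ebf2-EGFP+ replicates of the same numbers. The ratio was thus closer between the populations of 1 replicate number than between the 2 libraries of 1 population.

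**Figure D1:**
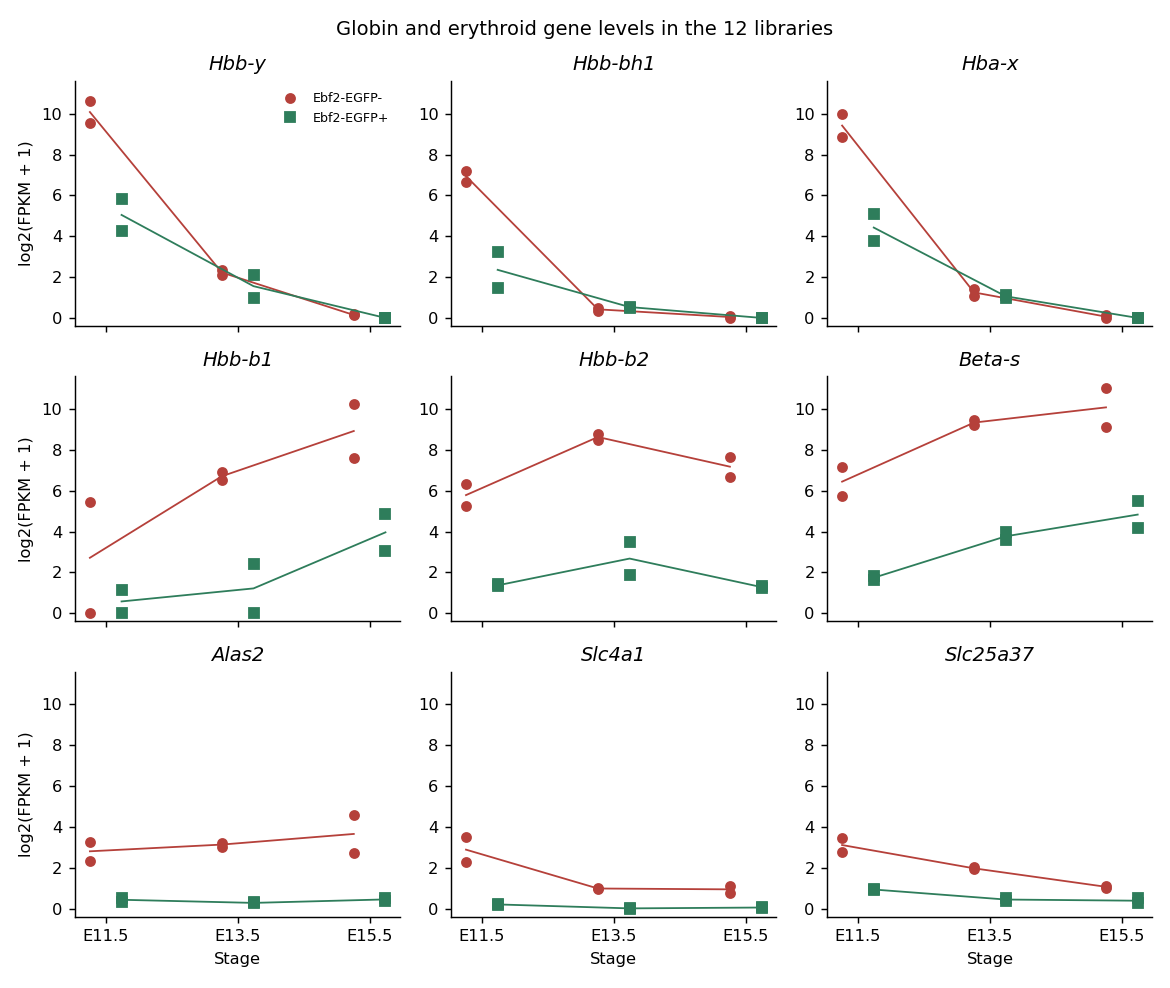
Level of each of the 9 genes, as log2(FPKM + 1), in every library by stage. Circles are Ebf2-EGFP- libraries, squares are Ebf2-EGFP+ libraries, and lines join the means of the 2 libraries of a group. The embryonic globins of the top row fall to near 0 in both populations, while the adult beta globins of the middle row stay higher in Ebf2-EGFP- libraries on both later stages.

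The adult beta globins ran the other way. Beta-s stood at 52.8 and 140 FPKM in the E11.5 Ebf2-EGFP- libraries, reached 711 and 587 FPKM on E13.5, and measured 564 and 2083 FPKM on E15.5. By FPKM it ranked 19 and 18 in the table on E13.5 and 27 and 6 on E15.5. In Ebf2-EGFP+ cells it rose from 2.59 and 2.11 FPKM at E11.5 through 14.6 and 10.9 FPKM at E13.5 to 16.8 and 44.7 FPKM at E15.5. The groups of the first and last stage did not overlap in either population.

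Hbb-b2 did not rise steadily. The Ebf2-EGFP- libraries held 37.0 and 79.2 FPKM of it at E11.5, then 439 and 356 FPKM, then 103 and 201.5 FPKM, so its highest group was E13.5. The Ebf2-EGFP+ libraries held 1.49 and 1.67, then 10.1 and 2.69, then 1.54 and 1.33 FPKM, and those of the first and last stage overlapped. Hbb-b1 was highest at E15.5, with 196 and 1196 FPKM in the Ebf2-EGFP- libraries and 7.41 and 27.9 FPKM in Ebf2-EGFP+ cells.

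Hbb-b1 was also the least steady member between libraries of a group. It was near 0 in E11.5 Ebf2-EGFP- replicate 1 (0.00091 FPKM), E11.5 Ebf2-EGFP+ replicate 2 (0.000599 FPKM) and E13.5 Ebf2-EGFP+ replicate 1 (0.000845 FPKM). The other library of each of these groups stood at 42.2, 1.23 and 4.40 FPKM, and Hbb-b2 and Beta-s were measured in all of them. In E13.5 Ebf2-EGFP- cells the libraries were close, at 118 and 90.8 FPKM. A level of Hbb-b1 taken on its own is thus uncertain in these groups.

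The division of the adult sum among the 3 symbols changed with stage, with Beta-s as its steady part. Beta-s made up between 48.7% and 65.3% of the adult sum in every library. The ratio of Beta-s to Hbb-b2 was 1.43 and 1.77 in E11.5 Ebf2-EGFP- cells and 1.62 and 1.65 on E13.5, and was higher on E15.5, with 5.49 and 10.3. For Ebf2-EGFP+ cells the ratios were 1.73 and 1.26, then 1.45 and 4.05, then 10.9 and 33.6. The summed adult level depends less on how reads were divided among these 3 symbols than any 1 of them does. It leaves out any read given to a copy outside the table. In the Ebf2-EGFP- libraries this sum was 89.8 and 262 FPKM, 1269 and 1034 FPKM, and 863 and 3481 FPKM stage by stage. The Ebf2-EGFP+ sums were 5.31 and 3.78, 24.7 and 18.0, and 25.7 and 73.9 FPKM.

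Taken as a share, the switch fell between E11.5 and E13.5 in both populations. The adult genes made up 9.67% and 13.1% of the summed beta-type FPKM in the E11.5 Ebf2-EGFP- libraries (11.4% ± 2.43, SD, n = 2) and 7.72% and 15.8% in the Ebf2-EGFP+ libraries (11.8% ± 5.71, SD, n = 2). At this stage the populations overlapped in their share, although their summed globin levels differed widely. At E13.5 the share was 99.7% and 99.6% in Ebf2-EGFP- cells but 86.7% and 92.7% in Ebf2-EGFP+ cells (89.7% ± 4.28, SD, n = 2), with no overlap between the populations. At E15.5 it was 99.99% in each Ebf2-EGFP- library, and the embryonic beta-type genes were listed at 0 in the Ebf2-EGFP+ libraries. Leaving Beta-s out of the sum lowered the E11.5 shares to 5.38% and 5.88% and the E13.5 Ebf2-EGFP+ share to 78.0%.

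**Figure D2:**
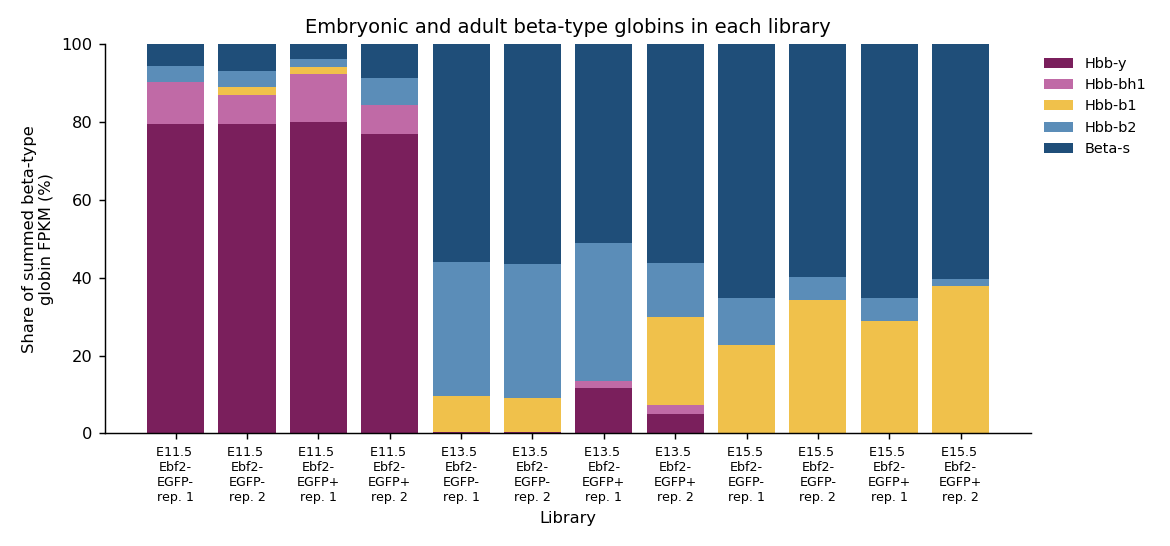
Composition of the summed FPKM of the 5 beta-type globin genes in each of the 12 libraries, as percent, with embryonic genes at the bottom and adult genes above them. The embryonic genes make up most of each E11.5 bar, and at E13.5 they remain visible in the Ebf2-EGFP+ bars, whose adult shares are 86.7% and 92.7%.

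The change from E11.5 to E15.5 can be given as a log2 difference on the log2(FPKM + 1) scale, which understates the change of low genes. In Ebf2-EGFP- cells it was -9.94 ± 0.48 for Hbb-y, -9.36 ± 0.40 for Hba-x and -6.90 ± 0.41 for Hbb-bh1 (difference ± SE of the fit). These were the 3 lowest differences of the whole table. The same change was 6.21 ± 1.43 for Hbb-b1, 3.64 ± 0.59 for Beta-s and 1.39 ± 0.47 for Hbb-b2. With each of the 4 libraries left out in turn, the value of Hbb-b1 ran from 3.49 without E11.5 Ebf2-EGFP- replicate 1 to 8.92 without replicate 2 of that group, and that of Beta-s from 2.70 to 4.58. The value of Hbb-b2 dropped to 0.85 without E11.5 Ebf2-EGFP- replicate 1 and to 0.91 without E15.5 Ebf2-EGFP- replicate 2. In this population 5 of the 9 members were lower at E15.5 without overlap, 3 were higher and 1 overlapped, beside 51.5% and 41.8% of all genes of the table that were lower and higher without overlap. In Ebf2-EGFP+ cells 5 members were lower, 2 were higher and 2 overlapped, beside 50.1% and 39.5% of all genes. There the change was -5.04 ± 0.48 for Hbb-y (-8.32 with a pseudocount of 0.1 in place of 1) and 3.09 ± 0.59 for Beta-s.

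Between the populations, most members were far lower in Ebf2-EGFP+ cells. At E11.5 the log2 difference, Ebf2-EGFP+ minus Ebf2-EGFP-, was -5.04 ± 0.48 for Hbb-y, -4.99 ± 0.40 for Hba-x, -4.71 ± 0.59 for Beta-s and -4.59 ± 0.41 for Hbb-bh1, which were the 4 lowest of the table. On both later stages the 3 lowest of the table were the adult beta globins, Hbb-b2 (-5.95 ± 0.47 on E13.5 and -5.90 ± 0.47 on E15.5), Beta-s (-5.57 ± 0.59 and -5.25 ± 0.59) and Hbb-b1 (-5.49 ± 1.43 and -4.96 ± 1.43). Over the 9 members the median difference was -4.42, -1.53 and -0.89 at the 3 stages, and over the whole table it was -0.19, -0.19 and -0.11. The groups did not overlap and Ebf2-EGFP+ was lower for 8, 6 and 7 of the 9 members, beside 50.1%, 49.7% and 44.6% of all genes of the table. In bulk samples, fewer red cells in a library and less of these RNAs per cell cannot be told apart.

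The difference of the embryonic globins was far smaller at E13.5 than at E11.5, while that of the adult ones stayed large. Set against the Ebf2-EGFP- library of the same stage and replicate number, Hbb-y in Ebf2-EGFP+ cells stood at 7.46% and 1.16% at E11.5 and at 82.0% and 30.01% at E13.5. Hba-x moved in the same way, from 7.15% and 1.24% to 86.8% and 72.2%. Beta-s stood at 4.903% and 1.504%, then 2.05% and 1.86%, then 2.98% and 2.14%. At E13.5 Hbb-y and Hba-x were thus still lower in the Ebf2-EGFP+ library of both pairs. The log2 difference at that stage was -0.67 ± 0.48 for Hbb-y, -0.19 ± 0.40 for Hba-x and 0.11 ± 0.41 for Hbb-bh1, and the value of Hbb-y was -1.23 without Ebf2-EGFP+ replicate 1 and -0.11 without Ebf2-EGFP+ replicate 2. Over the 4 libraries the levels of Hbb-y overlapped between the populations, as did those of Hba-x, while Hbb-bh1 was slightly higher in both Ebf2-EGFP+ libraries (0.470 and 0.422 FPKM) than in both Ebf2-EGFP- libraries (0.271 and 0.409 FPKM), a pattern that 39.1% of all genes shared. At E15.5 the embryonic levels were too low to compare, at 0.123 FPKM or less in every library.

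**Figure D3:**
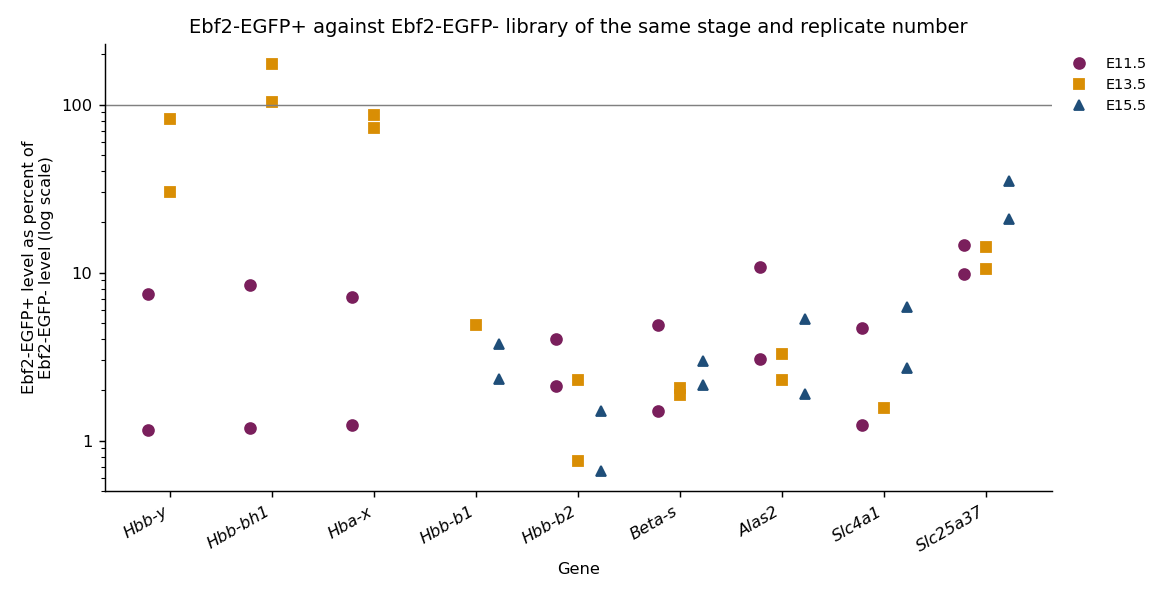
Ebf2-EGFP+ level of each member as a percent of the Ebf2-EGFP- library of the same stage and replicate number, on a log axis, with 1 point per pair and the grey line at equal levels. The 44 of 54 pairs with at least 0.01 FPKM in both libraries are drawn; at E13.5 the embryonic globins sit between 30.01% and 173% while Beta-s sits near 2%.

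Alas2, the haem synthesis enzyme, followed the adult globins more than the embryonic ones. The Ebf2-EGFP- libraries held 4.11 and 8.58 FPKM on E11.5, 8.39 and 7.23 FPKM on E13.5, then 5.63 and 23.0 FPKM, and those of the first and last stage overlapped. Every Ebf2-EGFP+ library lay between 0.192 and 0.445 FPKM, and the populations did not overlap at any stage. Its log2 difference was -2.37, -2.86 and -3.21 at the 3 stages, each with an SE of 0.46 (-3.77 at E11.5 and -4.65 at E13.5 with a pseudocount of 0.1). Per 1000 FPKM of the 6 globins it was 2.95 and 2.86 FPKM in E11.5 Ebf2-EGFP- cells, then 6.59 and 6.96 FPKM, then 6.53 and 6.61 FPKM. This ratio hardly differed between the E15.5 Ebf2-EGFP- libraries, whose globin sums were 863 and 3481 FPKM.

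Slc4a1, the membrane anion exchanger, and Slc25a37, the mitochondrial iron carrier, fell from E11.5 to E13.5 in both populations, less steeply than the embryonic globins in Ebf2-EGFP- cells. Slc4a1 measured 3.79 and 10.4 FPKM in E11.5 Ebf2-EGFP- cells, then 0.918 and 1.04 FPKM, then 0.719 and 1.15 FPKM. In Ebf2-EGFP+ libraries it never exceeded 0.177 FPKM and was listed at 0 in E13.5 replicate 1. The populations did not overlap at any stage, with log2 differences of -2.68, -0.97 and -0.89, each with an SE of 0.29. With a pseudocount of 0.1 these were -4.67, -3.32 and -2.88, and the mean FPKM of the Ebf2-EGFP- libraries was 46.4 times higher on E11.5 and 24.7 times higher on E15.5. The size of the differences thus depends on the pseudocount, while the difference at E15.5 was smaller than that at E11.5 in each of these measures. From E13.5 to E15.5 Slc4a1 overlapped between the stages in Ebf2-EGFP- cells and was higher at E15.5 in Ebf2-EGFP+ cells (0.0447 and 0.0311 against 0 and 0.0163 FPKM).

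Slc25a37 measured 5.88 and 9.89 FPKM in E11.5 Ebf2-EGFP- cells, then 3.04 and 2.81 FPKM, then 1.02 and 1.17 FPKM. The Ebf2-EGFP+ libraries held 0.862 and 0.965, 0.431 and 0.295, and 0.213 and 0.410 FPKM, and the last 2 stages overlapped there. With a pseudocount of 0.1 its log2 difference was -2.72 on E13.5, where it was -1.53 with 1, and -1.58 on E15.5, where it was -0.68 with 1. Set against the Ebf2-EGFP- library of the same number it stood at 14.7% and 9.75%, then 14.2% and 10.5%, then 20.8% and 35.0%. Per 1000 FPKM of globins, Slc25a37 lay between 5.55 and 26.5 FPKM in Ebf2-EGFP+ libraries and between 0.336 and 4.22 FPKM in Ebf2-EGFP- libraries, with no overlap.

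**Figure D4:**
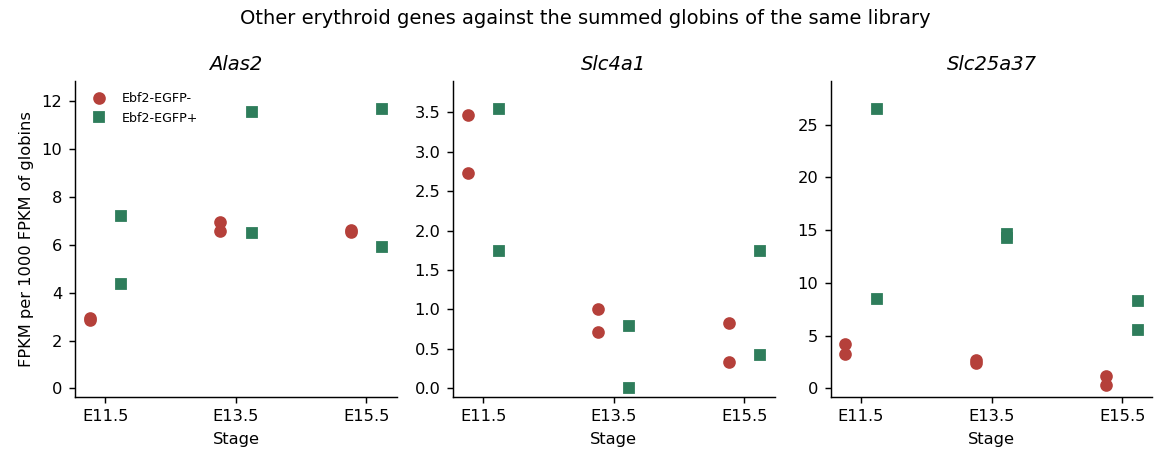
Level of Alas2, Slc4a1 and Slc25a37 per 1000 FPKM of the 6 globins in the same library, with circles for Ebf2-EGFP- and squares for Ebf2-EGFP+ libraries and a separate linear axis for each gene. The circles for Alas2 are close together at each stage, and the squares for Slc25a37 lie above all its circles.

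In several groups the levels of the members differed between the 2 libraries. In E11.5 Ebf2-EGFP- cells all 9 members were higher in replicate 2 than in replicate 1. The gap was 1.11 for Hbb-y and 1.39 for Beta-s on the log2(FPKM + 1) scale. Over the whole table the median of the signed gaps was -0.04 in that group. Such a median shows a shared shift of all genes, and how far a typical gene differed was not computed. In E11.5 Ebf2-EGFP+ cells the embryonic globins went the opposite way, and replicate 2 was lower than replicate 1 by 1.53 for Hbb-y (log2 gap of -1.53), with -1.34 for Hba-x and -1.78 for Hbb-bh1. Within E15.5 Ebf2-EGFP- cells replicate 2 was higher by 1.88 for Beta-s, 2.60 for Hbb-b1 and 1.85 for Alas2, and in E15.5 Ebf2-EGFP+ cells by 1.36 for Beta-s and 1.78 for Hbb-b1. At E13.5 the Ebf2-EGFP- libraries were close, with a gap of -0.28 for Beta-s. The 9 members together made up between 0.632% and 2.73% of the summed FPKM of the table in Ebf2-EGFP- libraries and between 0.0176% and 0.0834% in Ebf2-EGFP+ libraries.

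Other genes of red cells, from 6 lists of 103 genes, did not show 1 common direction. Of the 27 found in the table, 13 were lower and 10 higher in Ebf2-EGFP+ cells at E11.5 (limma, adjusted p under 0.05), 11 and 10 on E13.5, then 8 and 7 on E15.5. Beside these stand all genes of the table, of which 44.9%, 43.5% and 31.6% were called lower and 36.8%, 32.1% and 25.8% higher at the 3 stages. The median log2 difference of the 27 genes was -0.35, -0.03 and 0.19, beside -0.19, -0.19 and -0.11 for the whole table. With median-of-ratios scaling of the libraries, 8 were called lower and 10 higher at E11.5, and 8 and 12 at E15.5. With the replicate block, the calls lower and higher were 13 and 10, then 12 and 12, then 10 and 12 by stage. Which direction held more calls at E15.5 thus turned with either alternative. Shares of all genes called were not computed for median-of-ratios scaling or the block. These counts show a dependence on the processing and cannot be set against the whole table. From E11.5 to E15.5, 13 fell and 8 rose in Ebf2-EGFP- cells (10 and 12 with that scaling), beside 47.6% and 37.7% of all genes, and 13 fell and 9 rose in Ebf2-EGFP+ cells, beside 42.1% and 33.3%.

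Of 15 genes of haem synthesis 3 were in the table, and of 15 genes of iron handling 4. Those in the table were lower in the Ebf2-EGFP+ population on E11.5, and few calls were left by E15.5. Beside them, 44.9%, 43.5% and 31.6% of all genes were called lower at the 3 stages. All 3 haem synthesis genes of the table were called lower on E11.5, 1 on E13.5 and 0 on E15.5 (1 on E15.5 in the paired fit with the replicate block, where Abcb6 was called higher). Abcb6, a porphyrin carrier, was 8.07 ± 0.107 FPKM in Ebf2-EGFP- and 5.31 ± 0.666 FPKM in Ebf2-EGFP+ cells at E11.5 (SD, n = 2; log2 difference -0.53 ± 0.18, limma adjusted p = 0.015). All 4 iron genes were called lower at E11.5, with 2 lower and 1 higher on E13.5, then 0 lower and 1 higher on E15.5. Tfrc, the transferrin receptor that takes iron into cells, was 29.9 ± 0.969 against 15.7 ± 0.127 FPKM at E11.5 (log2 difference -0.89 ± 0.21, limma adjusted p = 0.0018), and with the replicate block it was also called lower on E13.5 and E15.5 (limma adjusted p = 0.012 and 0.011). Blvrb, a reductase abundant in red cells, was lower by -1.80 ± 0.22 at E11.5 (limma adjusted p = 1.5e-05) and at -0.12 at E15.5 (limma adjusted p = 0.66). Glrx5, Abcb6 and Trf lost their E11.5 calls with median-of-ratios scaling (limma adjusted p = 0.076, 0.14 and 0.13).

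Genes of the membrane skeleton, of red cell enzymes and of erythroid transcription split in direction, as did the table as a whole. Beside the counts below, 44.9%, 43.5% and 31.6% of all genes were called lower at the 3 stages and 36.8%, 32.1% and 25.8% higher. Among the 6 membrane genes, 3 were called higher and 2 lower on E11.5, 4 and 2 on E13.5, then 3 and 1. Add2, a spectrin-binding adducin that neurons also make, was higher at E11.5 by 1.66 ± 0.16 (limma adjusted p = 3.0e-06), and Epb4.9, the actin bundler dematin, by 1.34 ± 0.18 (limma adjusted p = 2.8e-05). Among the 7 enzyme and maturation genes, 2 were called lower and 3 higher at E11.5 and 4 and 3 at each later stage. Bpgm, which makes the regulator of oxygen release, was lower at E13.5 by -1.44 ± 0.19 (limma adjusted p = 5.5e-05). Among the 6 transcription genes, 2 were called lower and 3 higher on E11.5, 2 and 1 on E13.5, then 3 and 0. Bcl11a, a repressor of embryonic globin genes in red cells that cortical neurons also make, was higher by 1.44 ± 0.21 at E11.5 (limma adjusted p = 7.0e-05) and Sox6, a partner in that repression, was lower by -2.24 ± 0.18 at E13.5 (limma adjusted p = 3.7e-06). Cygb, the only other globin of the table, was higher at E11.5 by 0.94 ± 0.29 (limma adjusted p = 0.0093) and at E13.5 by 1.50 ± 0.29 (limma adjusted p = 0.00063).

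Of the 27 genes, 5 were called lower in the Ebf2-EGFP+ population throughout and 5 higher throughout, beside 21.8% and 14.6% of all genes of the table, and those outside the naming rule were chosen after their values were seen. Lower at each stage were Gypc (a glycophorin of the red cell membrane), Car2 (a carbonic anhydrase), Fam46c, Myb and Sox6. Gypc stood at 7.48 and 7.05 FPKM in E11.5 Ebf2-EGFP- cells and at 0.834 and 0.988 FPKM in Ebf2-EGFP+ cells, and Car2 at 5.65 and 8.23 against 0.670 and 0.439 FPKM. At E15.5 Gypc was at 1.17 and 0.783 against 0.0820 and 0.0511 FPKM, so it fell in both populations. Among those higher at each stage were Epb4.9, Cd59a, Mgst3 and Cpeb4. At E11.5 the calls of Myb and Sox6 were lost with median-of-ratios scaling (limma adjusted p = 0.15 and 0.067).

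**Figure D5:**
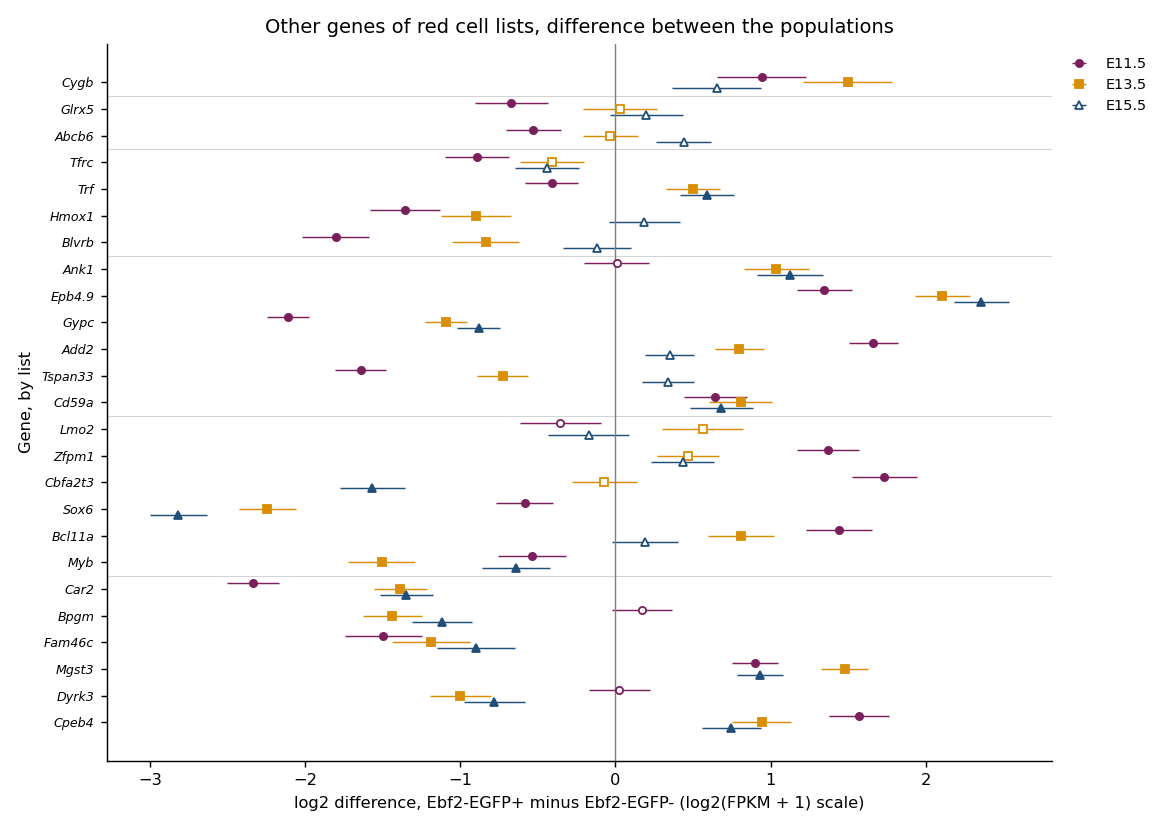
Log2 difference, Ebf2-EGFP+ minus Ebf2-EGFP-, of 25 of the 27 other red cell genes at the 3 stages, grouped by list from globin (top) through haem synthesis, iron, membrane and transcription to enzymes (bottom). Bars are SE of the fit and filled symbols passed limma's test at an adjusted p under 0.05; the genes lie on both sides of 0 at every stage, and of all 27 genes 13 were called lower and 10 higher at E11.5.

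Summed markers of vessel cells were also lower in Ebf2-EGFP+ libraries. After E11.5 few single endothelial markers were called, and 1 gene made up much of the endothelial sum. Of 24 endothelial markers 7 were in the table, and their summed level was 23.1 to 30.3 FPKM in Ebf2-EGFP- and 5.21 to 6.36 FPKM in Ebf2-EGFP+ libraries on E11.5, 19.7 to 22.1 against 9.31 to 14.8 FPKM at E13.5, and 12.5 to 13.98 against 5.92 to 7.74 FPKM at E15.5. All 7 were called lower on E11.5, then 2 on E13.5 and 2 on E15.5, where 1 (Plvap, a protein of fenestrated vessels) was higher by 0.64 ± 0.20 (limma adjusted p = 0.017), beside 44.9%, 43.5% and 31.6% of all genes called lower at the 3 stages. Cldn5, a tight junction protein of vessels, was listed at 0 in E11.5 Ebf2-EGFP+ replicate 1, and Mfsd2a, a lipid carrier of brain endothelium, was lower at all 3 stages, by -1.64 ± 0.19 at E11.5 (limma adjusted p = 1.0e-05). At E13.5 Mfsd2a alone stood at 14.9 and 15.4 FPKM in Ebf2-EGFP- and at 9.13 and 6.53 FPKM in Ebf2-EGFP+ libraries. The endothelial sum of that stage was thus mostly that of 1 gene, and the sum without it was not computed.

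Of 13 pericyte and smooth muscle markers 5 were in the table, with sums of 21.3 to 26.1 against 4.50 to 4.77 FPKM at E11.5, 12.5 to 14.8 against 0.786 to 0.823 FPKM at E13.5, and 8.56 to 13.46 against 2.14 to 5.15 FPKM at E15.5. At the 3 stages 5, 5 and 4 of them were called lower, among them Pdgfrb, by -1.59 ± 0.16 at E11.5 (limma adjusted p = 3.9e-06). Of 14 markers of meninges and fibroblasts 12 were in the table, and 11, 4 and 3 were called lower, with 1 higher at E11.5, so that at E13.5 and E15.5 the share called lower was below that of all genes. Their sums overlapped between the populations at E11.5 (313 to 343 against 326 to 361 FPKM), where Crabp2 alone stood at 146 and 147 FPKM in Ebf2-EGFP- and at 299.6 and 256 FPKM in Ebf2-EGFP+ cells. The meningeal marker Aldh1a2 was listed at 0 in all E15.5 libraries.

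Of 18 microglia and macrophage markers 2 were in the table, Cd68 and Aif1. Their sums were 2.103 to 3.01 FPKM in Ebf2-EGFP- and 1.13 to 1.35 FPKM in Ebf2-EGFP+ libraries on E11.5. They overlapped on E13.5 (1.13 to 1.82 against 1.54 to 2.13 FPKM). On E15.5 they were 0.972 to 1.29 against 3.004 to 3.21 FPKM, so the direction turned. Cd68 was called lower in Ebf2-EGFP+ cells on E11.5 (log2 difference -0.81 ± 0.18, limma adjusted p = 0.0011). Aif1 was called higher on E13.5 (0.65 ± 0.11, limma adjusted p = 0.00036) and on E15.5 (1.199 ± 0.11, limma adjusted p = 8.8e-06). None of the 12 platelet and 10 neutrophil or monocyte markers was in the table. The part that cells of vessels, meninges or the macrophage lineage had in the globin differences was not tested.

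The genes whose level over the 12 libraries most resembled the summed embryonic globins were S1pr2, Lum, Gpx3, Slc18a2, Peg10, Asb4, Wnt8b, Peg3, Six3 and Il17rd, with Pearson's r on log2(FPKM + 1) between 0.965 and 0.976 among 4453 other genes with a mean of at least 1 FPKM. S1pr2, a sphingosine phosphate receptor, ran from 0.786 to 5.10 FPKM in Ebf2-EGFP- and from 1.05 to 2.95 FPKM in Ebf2-EGFP+ libraries, a far smaller range than that of the globins. Among the 10 genes most like the summed adult beta globins were Ptn, Slc1a3, Pde1b, Mt3, Acot1, Rnf180, Arl4d, Sst and Pkdcc, and r of the 10 lay between 0.923 and 0.967. Ptn, a secreted growth factor, ran from 43.9 to 125 FPKM in Ebf2-EGFP- and from 8.43 to 44.6 FPKM in Ebf2-EGFP+ libraries. Libraries share their stage, population and preparation, so these values are descriptions of similar profiles and nothing more. Among the members, r was 0.99 for Hbb-y with Hba-x, 0.91 for Beta-s with Alas2 and 0.95 for Slc4a1 with Slc25a37, while it was -0.20 for Hbb-y with Beta-s.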

How the data were processed

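Bulk RNA-seq of sorted cortical cells gave 12 libraries, 2 per group, assigned to groups by stage, population and replicate number in the labels. The authors deposited FPKM for coding genes, using TopHat 2.0.8b on mm10 and then Cufflinks 2.2.0. The table holds only those they selected as differential. The authors' own fold, p-value and q-value columns were not read, and the lncRNA table was not used. A few genes that belong to the lists or met the naming rule are counted but not reported here by name. The members and the gene lists were chosen with earlier results of these data known.

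FPKM were used as deposited, on the log2(FPKM + 1) scale, in 1 limma 3.58.1 fit (R 4.3.3) of 12 libraries in 6 groups with a variance trend. Two-sided p-values were adjusted (Benjamini-Hochberg) over the 4859 genes, with calls at an adjusted p under 0.05, and the fit was tested on simulated data. The members received no test. Named related genes were at most 4 per list with the highest mean FPKM, and those most alike were the 10 with the highest Pearson's r. Replicate numbers were treated as pairs in 1 alternative, because libraries that share a number and a stage deviated together, with correlations of 0.431, 0.534 and 0.431 by stage. Other alternatives were a pseudocount of 0.1, a mean of at least 1 FPKM, 2 scalings, omission of the variance trend, a fit restricted to the groups compared, and each library left out. Library depth is unknown, so no counting interval was computed. Sequences and motifs came from RefSeq and positions from GENCODE M21, and 4 of the 9 members matched the promoter table.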

Additional observations from a re-analysis of the deposited data

Results flagged for a closer look

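Groups of 2 are too small to single out a deviating library. The following genes are listed because both libraries of each group moved in 1 direction in 1 comparison and in the opposite direction in another. The change from 1 comparison to the other was not tested, nor was any difference of Hbb-bh1. The population difference of Hbb-bh1 changed by 4.70 on the log2(FPKM + 1) scale, from -4.59 at E11.5 to 0.11 at E13.5, where every library lay at 0.470 FPKM or below. That of Abcb6, a porphyrin transporter, changed by 0.97 from E11.5 (-0.53) to E15.5 (0.44). That of Trf, transferrin, changed by 0.91 from E11.5 (-0.41) to E13.5 (0.50) and by 1.00 to E15.5 (0.59). That of Cbfa2t3, a transcriptional corepressor, changed by -3.30 from E11.5 (1.73) to E15.5 (-1.57), and that of Plvap, a vessel protein, by 1.54 from E11.5 (-0.90) to E15.5 (0.64). From E11.5 to E15.5, Blvrb changed by -0.53 in Ebf2-EGFP- and by 1.15 in Ebf2-EGFP+ cells, a gap of 1.68. Its fall in Ebf2-EGFP- cells was called in the main fit (limma adjusted p = 0.037). With median-of-ratios scaling that call was lost (limma adjusted p = 0.25). Over the same stages Egfl7, of endothelium, changed by -0.71 and 0.78, a gap of 1.49, and Cbfa2t3 by 0.86 and -2.44, a gap of -3.30.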

How the results depend on the processing

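Of 387 recomputed differences of the members, 44 moved by more than the spread between libraries, 27 of them with a pseudocount of 0.1. None changed sign where the groups did not overlap, but only the 2 scalings could have changed a sign there. The other pseudocount and leaving 1 library out keep the order of groups that lie apart. The mean filter and the replicate block return the same difference. Where groups overlapped, the E11.5 population difference of Hbb-b1 ran from -4.85 to 0.58 with 1 library left out, turning positive without Ebf2-EGFP- replicate 2. The total of related genes called, both directions together, stayed within 1.5 times its value under every alternative, against 23, 21, 15, 21 and 22 as reported: 17 to 23 at E11.5, 19 to 24 at E13.5, 13 to 22 at E15.5, 18 to 22 over stages in Ebf2-EGFP- and 19 to 22 in Ebf2-EGFP+ cells. By direction, those called lower at E11.5 went from 13 to 8 with median-of-ratios scaling and also without Ebf2-EGFP- replicate 1, and those higher at E15.5 from 7 to 12 with that scaling and with the block. With the replicate block, 23, 24 and 22 were called at the 3 stages against 23, 21 and 15 without it. The block lost no call of a named related gene but added some, Tfrc, Abcb6, Add2 and Cygb at E15.5 among them. Other alternatives lost calls of single genes, which a steady total does not show. The E13.5 call of Egfl7 was lost with median-of-ratios scaling (limma adjusted p = 0.30). That call was also lost with a pseudocount of 0.1, the mean filter and the fit restricted to the groups compared. Shares of all genes called were not computed under the alternatives. Median-of-ratios scaling moved the median difference of all genes at E11.5 from -0.19 to -0.0029 and that over stages in Ebf2-EGFP- cells from -0.32 to -0.09, and scaling to the sum without the members moved the latter to -0.51. With Hbb-b1, Hbb-b2 or Beta-s left out, the adult share in E13.5 Ebf2-EGFP- cells was 99.62%, 99.47% and 99.20%. In E11.5 Ebf2-EGFP- cells it was 7.72% without Hbb-b2 and 5.38% without Beta-s. Without Beta-s it was 5.88% in E11.5 Ebf2-EGFP+, 78.0% in E13.5 Ebf2-EGFP+ and 99.979% in E15.5 Ebf2-EGFP- cells. A library alone in its group was assumed to vary like the other groups. The cause of these changes was not tested, beyond the fewer genes in the sum.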
